A study of Homo sapiens with 6 samples.

Results

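The 39 genes described here encode enzymes that make, recycle or balance the purine and pyrimidine nucleotides. They were chosen by name and role, from PPAT at the entry of purine synthesis to DCTPP1, which clears surplus dCTP. No measured value entered the rule, but the list was drawn up with earlier results of these data known. All 39 were found among the 22077 gene symbols of the count table, and all 39 passed the expression filter that left 14162 genes for testing. RNA-seq had been performed on human hepatocellular carcinoma cells overexpressing transketolase (TKT) and on vector control cells, with 3 cultures in each condition. The study's Results and the sample labels point to Huh7 (spelled Hu7 in the labels), a hepatocellular carcinoma line, whereas its Methods name HCCLM3. TKT was introduced by plasmid transfection followed by selection, the controls are labelled wt, and whether the cells were a pool or a clone is not given in the sources used here. The Methods say in general that experiments were repeated independently, but nothing ties this to the 3 sequenced cultures of a condition. If these were not grown apart, the p-values measure only the spread between these 6 samples.

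Cells make nucleotides along a pair of routes. De novo synthesis builds the purine ring stepwise on phosphoribosyl pyrophosphate, and builds the pyrimidine ring first and then attaches it to the same sugar donor, whereas salvage enzymes return free bases and nucleosides to the nucleotide pool. Ribonucleotide reductase then converts ribonucleotides to the deoxynucleotides (dNTPs) used in DNA. The sugar comes from ribose 5-phosphate of the pentose phosphate pathway, whose non-oxidative branch contains TKT. The question addressed here was whether transcripts of the nucleotide enzymes differed between TKT-overexpressing and control cells.

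The libraries held between 30148788 and 37096156 counts. TKT, given as TMM-scaled CPM, counts relative to library size, had 9402, 9549 and 9392 CPM in the TKT-overexpressing cultures and 497, 469 and 515 CPM in the control cultures, and its log2 fold change was 4.26 ± 0.04 (SE, edgeR adjusted p = 1.15e-25). The hepatocyte markers ALB and AFP had control levels of 2294 and 2589 FPKM (fragments scaled by gene length and library size), whereas APOB, also a hepatocyte marker, had at most 6 counts in any library. The detected leukocyte markers had at most 2 counts, and PECAM1 was the only endothelial or fibroblast marker with over 29 counts in a library, at between 472 and 717.

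No nucleotide synthesis gene rose after TKT overexpression, and 7 of the 39 fell: RRM2, APRT, HPRT1, IMPDH1, NME1, PFAS and PAICS (edgeR's quasi-likelihood test, adjusted p under 0.05 over all tested genes). Over all tested genes, 4.94% were called lower and 5.69% higher. The 7 falls were small, between 8.0% and 17.8% of the control level, and 0 of the 39 genes passed the study's threshold of an absolute log2 fold change over 1, which 0.727% of all tested genes passed. At an unadjusted p under 0.05, 16 members were lower and 1 was higher, against 12% and 11.8% of all tested genes. DESeq2 called 9 members lower and 0 higher, against 775 lower and 737 higher of the 22056 genes to which it gave a p-value. For limma on log2(FPKM + 1) it was 2 lower and 0 higher, against 331 lower and 496 higher of 14162 genes. The DESeq2 and limma counts of the classes and lists below stand beside these same totals. The median log2 fold change of the 39 genes was -0.10, against 0.00 over all tested genes, and 30 of them were below 0, against 49.8% of all tested genes.

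The nucleotide genes were mostly well expressed, which affects how often a small difference can be called. Where the mean log2 CPM was 5 or more, 7 of 27 members were lower and 0 higher, against 9.97% lower and 7.57% higher of the 5629 tested genes at that level. In 24 of these 27 the log2 fold change was below 0, against 58.1% of the tested genes at that level. All 3 TKT-overexpressing cultures lay below all 3 control cultures in 16 of the 39 genes, a pattern seen in 13.9% of all tested genes, and above them in AMPD3 only, against 14.1%. At a mean log2 CPM of 5 or more the former pattern was seen in 15 of the 27 members and in 22.4% of the tested genes. The number called lower depended on single cultures. It was 3 omitting TKT-overexpressing (TKT) culture 1, omitting TKT culture 3 and omitting control culture 1, and between 5 and 8 omitting each of the others.

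**Figure D1:**
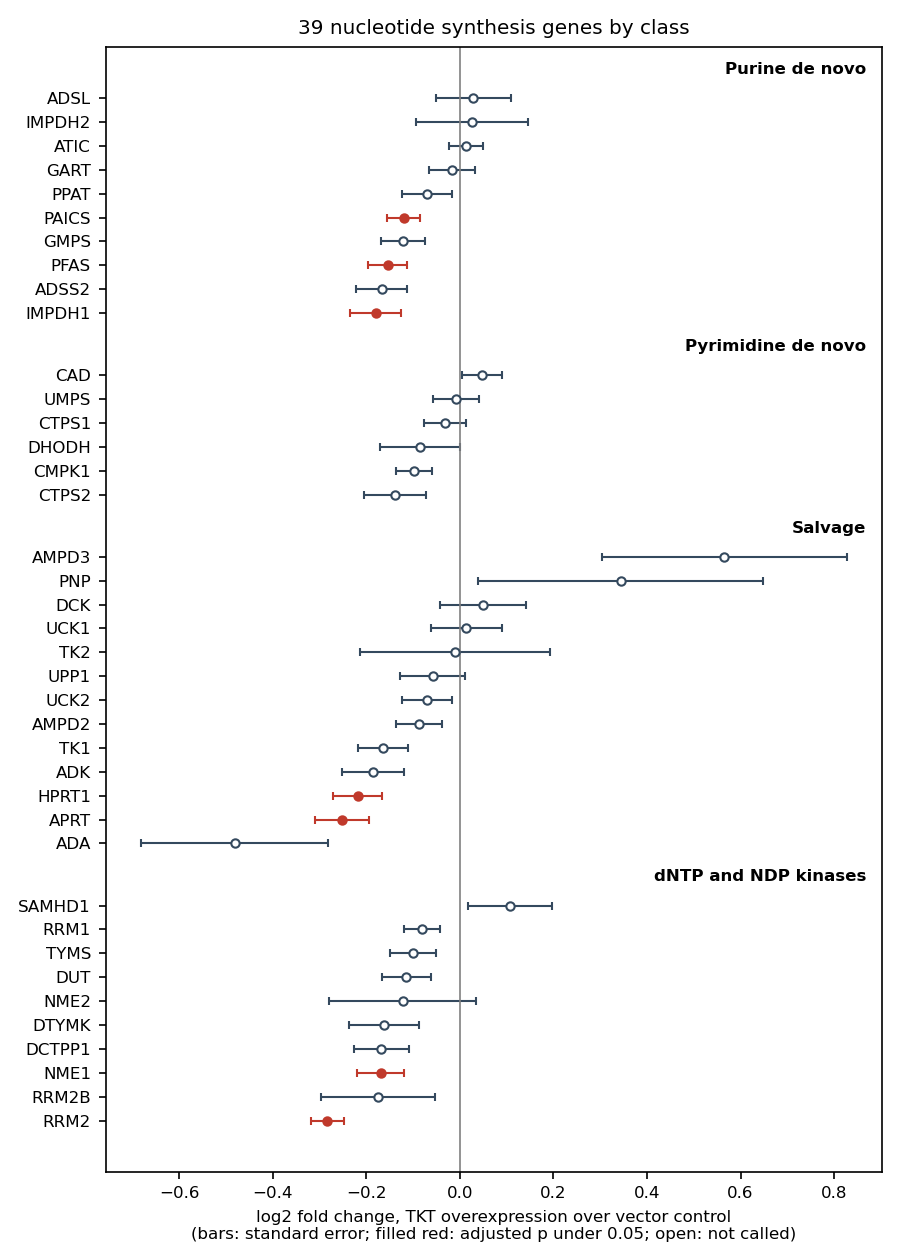
Log2 fold change (x axis, TKT overexpression over vector control) of each of the 39 genes, grouped by class, with bars for the standard error of edgeR's fit. Filled red points are the 7 genes at an adjusted p under 0.05, all below 0; the widest bars belong to PNP, AMPD3, TK2 and ADA, all under 10 CPM in control cells.

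Purine de novo synthesis. Of 10 genes, 3 fell, 0 rose and 7 were not called, against 4.94% lower and 5.69% higher of all tested genes. At a mean log2 CPM of 5 or more those shares were 9.97% and 7.57%. The median log2 fold change of the class was -0.10. DESeq2 called 4 lower and 0 higher, and limma on log2(FPKM + 1) called 0 in either direction. In edgeR 5 genes of the class were lower and 0 higher at an unadjusted p under 0.05, against 12% and 11.8% of all tested genes. The genes that fell were PFAS and PAICS, which catalyse middle steps of the pathway, and IMPDH1, an isozyme of the rate-limiting enzyme of guanine nucleotide synthesis.

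PFAS (chromosome 17, 8247618 to 8270491, plus strand, GRCh38 by GENCODE 29) had 144, 143 and 139.7 CPM on overexpression and 158, 163 and 153 CPM in control cells. The groups did not overlap, and the log2 fold change was -0.15 ± 0.04 (SE, edgeR adjusted p = 0.0214). PAICS, a bifunctional enzyme that acts after PFAS in the pathway, had 458, 474 and 472 CPM on overexpression and 514, 516 and 495 CPM in control cells. It was the most abundant of the 3 per library, and its fall was the smallest of the 7, with a log2 fold change of -0.12 ± 0.03 (SE, edgeR adjusted p = 0.0289). IMPDH1 (chromosome 7, 128392277 to 128410252, minus strand) had 79.9, 85.0 and 76.3 CPM on overexpression and 88.4, 88.8 and 96.0 CPM in control cells. Its log2 fold change was -0.18 ± 0.05 (SE, edgeR adjusted p = 0.0354), and the groups did not overlap.

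These 3 calls lay close to the threshold. The adjusted p in edgeR of PFAS was 0.0634 omitting TKT culture 1, 0.0674 omitting TKT culture 3, 0.0735 omitting control culture 1 and 0.0635 omitting control culture 2. For PAICS it was 0.186 omitting TKT culture 1, 0.0524 omitting TKT culture 2, 0.121 omitting control culture 1 and 0.0511 omitting control culture 2. For IMPDH1 it was 0.117 omitting TKT culture 1, 0.145 omitting TKT culture 3, 0.0614 omitting control culture 1 and 0.160 omitting control culture 3.

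Among the 7 genes not called, ADSS2, which starts the branch from IMP to AMP, and GMPS, which makes GMP, had the largest absolute log2 fold changes. ADSS2 had 74.6, 78.4 and 72.2 CPM against 79.6, 84.7 and 88.6 in control cells, a log2 fold change of -0.17 ± 0.05 (SE, edgeR adjusted p = 0.0522). Omitting TKT culture 2 the adjusted p of ADSS2 was 0.0358, and omitting control culture 1 it was 0.0447. It was 0.158 omitting TKT culture 1, 0.173 omitting TKT culture 3, 0.0798 omitting control culture 2 and 0.203 omitting control culture 3. GMPS had 93.2, 91.6 and 91.1 CPM against 100.3, 101 and 98.5, a log2 difference of -0.12 (adjusted p in edgeR 0.106), and neither gene's groups overlapped. PPAT, the committing amidotransferase, had a log2 difference of -0.07 (adjusted p in edgeR 0.467), and GART, which acts at several steps, had -0.02 (edgeR adjusted p = 0.881). ATIC, which closes the purine ring, had 322, 316 and 317 CPM against 316, 308 and 322, and these values overlapped. ADSL and IMPDH2 were also within the spread of the cultures, with log2 fold changes of 0.03 (standard error 0.08) and 0.02 (standard error 0.12).

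PPAT and PAICS are divergent neighbours on chromosome 4, so the first enzyme of the pathway and a later one share their upstream region. In RefSeq 136 bases lie between their starts, at 56435615 for PPAT and 56435752 for PAICS. The stretch between the PPAT start and the first PAICS exon of GENCODE 29, chr4:56435616-56435740, is shown because both genes start from it (GRCh38.p14, minus strand, no exon base, matches to GGGCGG or its reverse complement in capitals).
PPAT and PAICS: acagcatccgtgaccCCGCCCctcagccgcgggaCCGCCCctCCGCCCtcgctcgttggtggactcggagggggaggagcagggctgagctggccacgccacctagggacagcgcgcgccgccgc
The stretch holds 3 such matches. It holds no match to the CCAAT box, the E-box or the E2F-type letters that are spelled out with the genes below. In control cells the levels were 17.1 ± 0.919 FPKM for PPAT and 67.3 ± 1.95 FPKM for PAICS (SD, n = 3 each), and only PAICS was called.

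Pyrimidine de novo synthesis. None of the 6 genes was called in edgeR, DESeq2 or limma. In edgeR 4.94% of all tested genes were called lower and 5.69% higher, so 0 of 6 is near these shares. At an unadjusted p under 0.05 in edgeR 1 was lower (CMPK1) and 0 were higher, against 12% and 11.8% of all tested genes. The median log2 fold change was -0.06. CAD, the trifunctional enzyme that opens the pathway and a well-known target of MYC, had 212, 216 and 229 CPM on overexpression and 212, 221 and 203 CPM in control cells. These values overlapped, and the log2 fold change was 0.05 ± 0.04 (SE, edgeR adjusted p = 0.558), the only positive value of the class.

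CTPS2, an isozyme of the enzyme that converts UTP to CTP, had the largest difference of the class. Its levels were 29.98, 33.4 and 33.9 CPM against 34.4, 36.1 and 36.5 CPM, without overlap, and its log2 fold change was -0.14 ± 0.07 (SE, edgeR adjusted p = 0.213). CMPK1, the kinase that phosphorylates UMP and CMP, had 266, 284 and 278 CPM against 286, 305 and 296, also without overlap. Its log2 fold change was -0.10 ± 0.04 (SE, edgeR adjusted p = 0.118). Of 16 alternative fits 1 called CMPK1, that with the GC content and length trend removed (edgeR adjusted p = 0.00242), chosen after seeing the data. DHODH, the mitochondrial dehydrogenase of the pathway, UMPS, which makes UMP, and CTPS1 had log2 fold changes of -0.09, -0.01 and -0.03, and the groups overlapped in each.

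Salvage. Of 13 genes, 2 fell, 0 rose and 11 were not called in edgeR, and the median log2 fold change was -0.07. The 15.4% that fell stands beside 4.94% of all tested genes and 9.97% of those with a mean log2 CPM of 5 or more. At an unadjusted p under 0.05, 5 were lower and 1 (AMPD3) was higher, against 12% and 11.8% of all tested genes. DESeq2 called 3 lower and 0 higher, and limma called 1 lower (HPRT1). Both genes that fell encode the phosphoribosyltransferases of purine salvage, HPRT1 for hypoxanthine and guanine and APRT for adenine, which attach the base to phosphoribosyl pyrophosphate.

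HPRT1 (chromosome X, 134460153 to 134520513, plus strand) had 50.8, 49.5 and 50.7 CPM on overexpression and 60.4, 58.5 and 56.8 CPM in control cells. The overexpressing cultures lay within a narrow band below all controls. HPRT1 fell by 14.1%, a log2 fold change of -0.22 ± 0.05 (SE, edgeR adjusted p = 0.00923). APRT (chromosome 16, 88809339 to 88811944, minus strand) had 136, 142 and 128 CPM on overexpression and 158, 148 and 177 CPM in control cells. Its controls were wider apart, but the groups did not overlap, and the log2 fold change was -0.25 ± 0.06 (SE, edgeR adjusted p = 0.0101). Omitting control culture 1 the adjusted p of HPRT1 was 0.0648, and omitting TKT culture 3 that of APRT was 0.0535.

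HPRT1 has a promoter without the letters CCAAT, and the stretch before its first GENCODE 29 exon is shown as an example of the GC-rich upstream regions common among these genes (chrX:134460015-134460152, GRCh38.p14, plus strand, no exon base, matches to GGGCGG in capitals).
HPRT1: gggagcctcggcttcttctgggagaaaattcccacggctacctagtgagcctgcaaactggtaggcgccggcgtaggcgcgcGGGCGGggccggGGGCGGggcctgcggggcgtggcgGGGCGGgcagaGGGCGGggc
In the RefSeq windows from 250 bases before to 50 bases after each start, GGGCGG on either strand was found for 30 of the 36 members with a window and for 75.1% of the tested genes with one. ADSL, IMPDH2 and RRM2B had no window in the table.

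TK1, the cytosolic thymidine kinase of S phase, had 141, 146 and 138.6 CPM on overexpression and 163, 144 and 170.2 CPM in control cells. Vector control culture 2 lay among the overexpressing cultures, and the log2 fold change was -0.16 ± 0.05 (SE, edgeR adjusted p = 0.0553). Without that control, the culture that overlapped, the adjusted p was 0.00130. Over the 16 alternative fits it lay between 0.00130 and 0.231, and was under 0.05 in 4. ADK, adenosine kinase, had 35.8, 33.6 and 31.5 CPM against 37.6, 36.7 and 40.5, a log2 difference of -0.19 (adjusted p in edgeR 0.0794).

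The largest log2 fold changes of the class belonged to rare transcripts and were not called. AMPD3, an AMP deaminase, had 2.40, 2.37 and 1.76 CPM against 1.69, 1.45 and 1.28, a log2 fold change of 0.56 ± 0.26 (SE, edgeR adjusted p = 0.191). It rested on 58 to 89 counts per library on overexpression and 43 to 53 in control cells. ADA, adenosine deaminase, had 2.59, 3.44 and 2.65 CPM against 4.65, 3.82 and 3.64, a log2 fold change of -0.48 ± 0.20 (SE, edgeR adjusted p = 0.140). PNP, which splits purine nucleosides, had 11.1, 9.76 and 12.3 CPM on overexpression and 13.0, 6.52 and 6.68 CPM in control cells. Its first control lay above all other cultures. With all cultures its adjusted p was 0.591, and omitting control culture 1 its log2 fold change was 0.74 with an adjusted p of 0.00329. That was the only 1 of 16 alternative fits under 0.05, and the highest adjusted p among them was 0.822. Of the other 6 genes, AMPD2, UCK2, UPP1, TK2, UCK1 and DCK, the log2 fold changes lay between -0.09 and 0.05, and the groups overlapped in each.

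**Figure D2:**
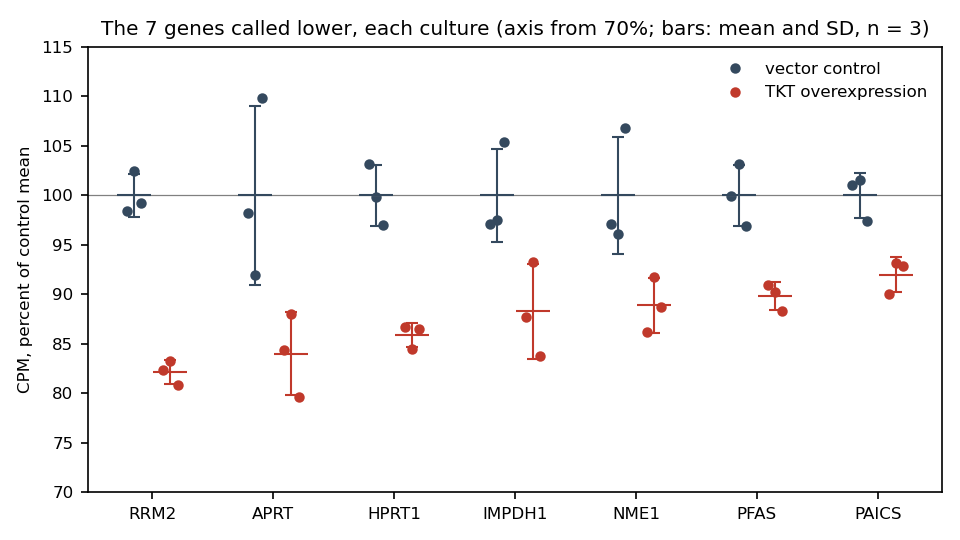
CPM of each culture as a percentage of the control mean (y axis, drawn from 70%) for the 7 genes called lower, with the mean and SD of each condition (n = 3). The TKT-overexpressing cultures lay between 79.7% and 93.3% of the control means and the control cultures between 92.0% and 109.8%. Within each gene the conditions did not overlap, but the genes were chosen by a test on these same cultures.

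dNTP supply and nucleoside diphosphate kinases. Of 10 genes, 2 fell, 0 rose and 8 were not called in edgeR, and the median log2 fold change was -0.14. The 20% that fell stands beside 4.94% of all tested genes and 9.97% of those with a mean log2 CPM of 5 or more. At an unadjusted p under 0.05, 5 were lower and 0 higher, against 12% and 11.8% of all tested genes. DESeq2 called 2 lower and 0 higher, and limma called 1 lower (RRM2). All genes of the class but SAMHD1 were below 0, against 49.8% of all tested genes and 58.1% of those with a mean log2 CPM of 5 or more.

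RRM2, the small subunit of ribonucleotide reductase whose level is known to limit dNTP synthesis in cycling cells, had the smallest p of the 39 genes. Its levels were 300.3, 303 and 295 CPM on overexpression and 359, 373 and 361 CPM in control cells. Each condition was tight and the conditions were well apart. RRM2 fell by 17.8%, a log2 fold change of -0.28 ± 0.04 (SE, edgeR adjusted p = 1.07e-05). It was the only member at an adjusted p under 0.05 in all 16 alternative fits, with log2 fold changes between -0.30 and -0.26. The gene lies on chromosome 2 from 10120698 to 10131419 on the plus strand, and 20.2% of its exon bases in GENCODE 29 also belong to exons of the overlapping gene AC007240.1.

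The RRM2 promoter is shown around its CCAAT boxes, the motif bound by the factor NF-Y, because a RefSeq window holds 3 of them in the same direction, starting at -123, -93 and -66 from the RefSeq start. A window of another RRM2 start holds 1 more. Each run has 30 bases on the plus strand of GRCh38.p14 with CCAAT in capitals, at chr2:10122604-10122633, chr2:10122634-10122663 and chr2:10122661-10122690, and all lie in an annotated RRM2 exon of GENCODE 29.
RRM2 first box: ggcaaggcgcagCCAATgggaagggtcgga
RRM2 second box: ggcatggcacagCCAATgggaagggccggg
RRM2 last box: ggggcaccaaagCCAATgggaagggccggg
CCAAT on either strand was found in a window of 13 of the 36 members, 36.1%, against 43.3% of the tested genes with a window and 51.9% of the S-phase genes described below. The E2F-type letters TTTNNCGC, on either strand, were found for 5 members (ADSS2, DCK, DUT, TYMS and GART) and for 0 of the 7 that fell, against 12.7% of the tested genes and 66.7% of the S-phase genes. No matches of different motifs overlapped in the members' windows. A match is a description of letters and not of binding.

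NME1, a nucleoside diphosphate kinase that transfers phosphate to the final position of NTPs and dNTPs, was the other gene to fall. It had 95.7, 102 and 98.5 CPM on overexpression and 108, 107 and 119 CPM in control cells, a log2 fold change of -0.17 ± 0.05 (SE, edgeR adjusted p = 0.0359). NME1 lies on chromosome 17 from 51153536 to 51162428 (plus strand), just before NME2, and 18.6% of its exon bases are shared with the readthrough gene NME1-NME2, so reads could be split between these genes. The adjusted p in edgeR was 0.165 omitting TKT culture 1, 0.0769 omitting TKT culture 3, 0.0627 omitting control culture 1 and 0.196 omitting control culture 3.

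RRM1, the large reductase subunit, had 189.9, 198 and 191 CPM against 206, 207 and 200.1, without overlap. Its log2 fold change was -0.08 ± 0.04 (SE, edgeR adjusted p = 0.196), so the partners of the same enzyme were called differently, and the difference between them was not tested. TYMS, which makes dTMP, had 77.4, 80.1 and 76.1 CPM against 82.1, 84.0 and 84.4, and DUT, which removes dUTP, had 72.9, 75.9 and 71.4 CPM against 80.0, 76.2 and 82.1. Neither overlapped and neither was called, with log2 differences of -0.10 and -0.11 (adjusted p in edgeR 0.227 and 0.183). In TYMS 46.6% of the exon bases overlap exons of ENOSF1 and TYMSOS, and in DCTPP1 42.1% overlap ZNF771. Whether the counting used strand is not given.

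DTYMK, which phosphorylates dTMP, and DCTPP1 showed the same arrangement as TK1. DTYMK had 107, 122 and 102 CPM on overexpression and 130.1, 111 and 128 CPM in control cells. DCTPP1 had 76.6, 78.5 and 70.5 CPM on overexpression and 86.3, 77.7 and 89.5 CPM in control cells. In both, vector control culture 2 lay within the range of the overexpressing cultures. The log2 fold changes were -0.16 and -0.17 (edgeR adjusted p = 0.217 and 0.0722), and without that control the adjusted p-values were 0.0205 and 0.0108. Omitting TKT culture 2, that of DTYMK was 0.0192. Over the 16 alternative fits the adjusted p lay between 0.0153 and 0.483 for DTYMK and between 0.0108 and 0.263 for DCTPP1. It was under 0.05 in 3 fits for each gene. RRM2B, the small reductase subunit induced by p53, had 14.2, 16.5 and 19.7 CPM against 15.98, 20.7 and 20.2, a log2 fold change of -0.17 ± 0.12 (SE, edgeR adjusted p = 0.428). SAMHD1, a dNTP hydrolase, had 20.6, 22.4 and 19.4 CPM against 19.3, 20.6 and 18.1, a log2 fold change of 0.11 ± 0.09 (SE, edgeR adjusted p = 0.524). NME2 had a log2 fold change of -0.12 ± 0.16 (SE) with at most 210 counts in a library.

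Per length, the nucleotide genes differed by orders of magnitude. In control cells APRT had 89.2 ± 7.47 FPKM, TK1 85.7 ± 6.72 and ATIC 82.8 ± 1.21 (SD, n = 3 each), and the differences among these 3 were within the SD of APRT or TK1. At the other end, AMPD3 had 0.214 ± 0.0295 FPKM, ADA 0.329 ± 0.0432 and TK2 0.610 ± 0.110 (SD, n = 3 each), levels that did not overlap. Purine de novo genes ran from 1.87 FPKM for IMPDH2 to the level of ATIC, pyrimidine de novo genes from 4.27 for DHODH to 66.2 for CMPK1, and dNTP genes from 1.77 for SAMHD1 to 53.7 for DCTPP1. These levels rest on the gene lengths behind the deposited FPKM. The implied length was 4.28 times the exon length of GENCODE 29 for ADA, 1.85 times for IMPDH2, 1.73 times for RRM2 and 1.71 times for ADSL. It was 1.47 times for ADK, 1.45 times for TK2, 1.42 times for PNP and 1.37 times for AMPD2. For the same counts, dividing by a longer length lowers the FPKM against other genes but leaves each gene's ratio between conditions as it is. The order of ADA and TK2, of IMPDH2 and ADSL and of DCTPP1 and RRM2 therefore depends on the lengths used. Whether the longer lengths came with other reads counted for these genes, which could change the counts too, was not tested.

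**Figure D3:**
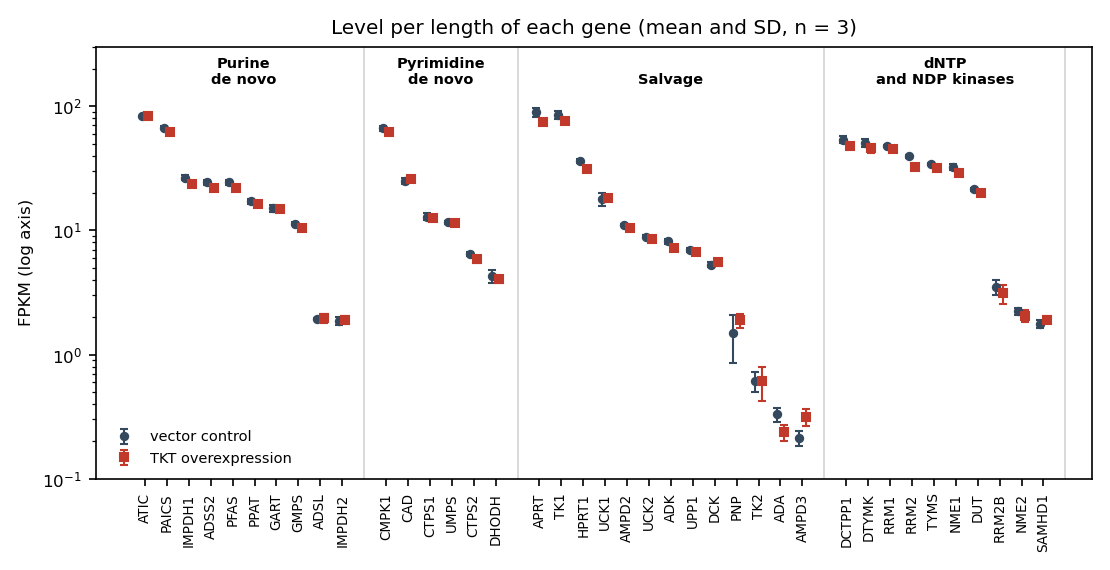
FPKM of each gene on a log axis (mean and SD, n = 3 per condition), ordered by control level within each class. The levels run from 0.214 FPKM for AMPD3 to 89.2 FPKM for APRT in control cells, and for nearly every gene the red and dark markers sit side by side.

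Isozymes were compared as the ratio of their FPKM in each culture, for 7 pairs. TK1 exceeded the mitochondrial TK2 by 143 ± 19.4 fold in control cells (SD, n = 3), AMPD2 exceeded AMPD3 by 52.4 ± 7.91 fold, NME1 exceeded NME2 by 14.5 ± 0.644 fold and RRM2 exceeded RRM2B by 11.5 ± 1.52 fold. CTPS1 exceeded CTPS2 by 2.02 ± 0.132 fold, UCK2 stood at 0.505 ± 0.0648 of UCK1, and IMPDH2 at 0.0700 ± 0.00422 of IMPDH1 (SD, n = 3 each). The AMPD2/AMPD3 ratio was 28.7, 31.8 and 40.1 on overexpression and 44.4, 52.6 and 60.2 in control cells, without overlap. This was the largest shift, a difference in log2 ratio of -0.65 (exact two-sided permutation test, p = 0.1, adjusted p = 0.35 over 7 pairs). The CTPS1/CTPS2 ratio was 2.25, 2.15 and 2.11 on overexpression and 2.103, 2.09 and 1.87 in control cells, a difference of 0.11 with the same exact permutation p of 0.1. The ratio levels depend on the gene lengths used, and could depend on how reads in shared exons were counted. Of the exon bases of NME2, 22.9% are shared with the readthrough gene NME1-NME2, and of those of NME1 18.6%. For IMPDH2 3.35% are shared with another gene, and TK2, RRM2 and AMPD2 also share exon bases with other genes. Whether reads were lost from either gene of a pair was not tested. With GENCODE 29 exon lengths, an alternative chosen after seeing the data, the control ratio was 98.0 ± 13.3 for TK1/TK2, 70.9 ± 10.7 for AMPD2/AMPD3, 20.3 ± 2.69 for RRM2/RRM2B and 0.139 ± 0.00841 for IMPDH2/IMPDH1 (SD, n = 3 each). For the same counts, the differences between conditions on the log2 scale do not depend on the lengths. With 3 cultures against 3, p cannot go below 0.1, and in the other 5 pairs the ratios overlapped.

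Of 45 other genes of nucleotide metabolism listed with the members, 36 were tested, and 2 fell and 0 rose (edgeR), with a median log2 fold change of -0.06 and a range from -0.38 to 1.30. The 5.56% that fell is near the 4.94% of all tested genes. At an unadjusted p under 0.05, 8 were lower and 2 higher, against 12% and 11.8% of all tested genes. DESeq2 called 3 lower and 0 higher. Both that fell, NME3 and NME4, are nucleoside diphosphate kinases, like NME1. NME6 and NME7 of the same list were not called, with log2 fold changes of -0.05 and 0.12. Of 16 alternative fits, 16 called NME3 and 10 called NME4. NME3 had 47.4, 42.5 and 45.3 CPM against 59.5, 50.7 and 59.9, a log2 fold change of -0.33 ± 0.07 (SE, edgeR adjusted p = 0.00208). NME4, a mitochondrial form, had 296, 318 and 290.2 CPM against 358, 319.6 and 365, a log2 difference of -0.21 (adjusted p in edgeR 0.0108). PRPS1, which makes phosphoribosyl pyrophosphate from ribose 5-phosphate, and which is named here for that role after its values were seen, had 219, 224 and 210.0 CPM against 228, 212 and 224. Its log2 fold change was -0.02 ± 0.04 (SE, edgeR adjusted p = 0.792). PRPS2 had at most 6 counts in a library and was not tested.

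Folate and one-carbon genes donate carbons to the purine ring and to dTMP. Of 15 listed, 13 were tested and 1 fell, SHMT2, the mitochondrial serine hydroxymethyltransferase, with 346, 365 and 326 CPM against 406, 385 and 408. Its log2 fold change was -0.21 ± 0.04 (SE, edgeR adjusted p = 0.00175). The 7.69% that fell is near the 4.94% of all tested genes. The median log2 fold change of the list was -0.11. Of the 13, 12 were below 0, against 49.8% of all tested genes and 58.1% of those with a mean log2 CPM of 5 or more. No gene of the list was higher in edgeR or DESeq2. At an unadjusted p under 0.05, 4 were lower, against 12% of all tested genes.

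Transcripts of RRM2, TK1 and TYMS are known to peak in S phase, so replication genes were examined beside them. Of 32 S-phase genes, 31 were tested, and 10 fell and 0 rose in edgeR and in DESeq2. The 32.3% that fell in edgeR stands beside 17.9% of the nucleotide genes and 4.94% of all tested genes. At a mean log2 CPM of 5 or more, 25.9% of the nucleotide genes and 9.97% of all tested genes fell. At an unadjusted p under 0.05, 14 S-phase genes were lower and 0 higher, against 12% and 11.8% of all tested genes. The median log2 fold change was -0.09, close to that of the nucleotide genes. Of the 31, 26 were below 0, against 49.8% of all tested genes and 58.1% of those with a mean log2 CPM of 5 or more. MCM5, a subunit of the replicative helicase, had 281, 272 and 259 CPM against 324, 296 and 319, a log2 fold change of -0.21 ± 0.04 (SE, edgeR adjusted p = 0.00197). MCM3, MCM6 and MCM7 of the same helicase had log2 fold changes of -0.14, -0.16 and -0.15. POLD1, the catalytic subunit of DNA polymerase delta, and the transcription factor E2F1 each had -0.20. The other 21 S-phase genes were not called, and 5 of them (CDC6, GINS3, RFC2, CCNE1 and CCNE2, named after their values were seen) were above 0. The part of the S-phase genes in the falls of RRM2 and of the other nucleotide genes was not tested. The number of S-phase genes called was 3 omitting TKT culture 1 and omitting control culture 1, 5 omitting TKT culture 3 and 6 omitting TKT culture 2.

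**Figure D4:**
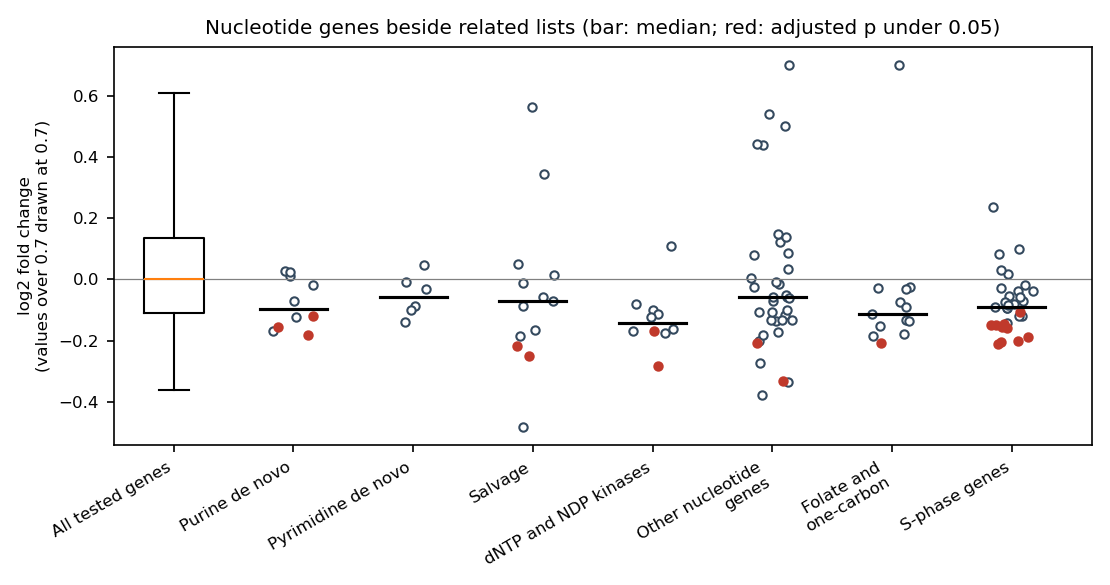
Log2 fold changes (y axis, TKT overexpression over vector control) of the tested genes of each class and of 3 related lists, with black bars at the medians, beside a box of all tested genes (box at the quartiles, whiskers from -0.36 to 0.61 at the 5th and 95th percentiles). Red points are genes at an adjusted p under 0.05, and all of them lie below 0; 2 genes above 0.7 are drawn at 0.7.

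The study concerns c-Myc, a transcription factor that binds the E-box CACGTG and is known to activate many nucleotide synthesis genes. MYC mRNA had 122.7, 123 and 122 CPM on overexpression and 110.0, 99.9 and 108 CPM in control cells, a log2 fold change of 0.21 ± 0.05 (SE, edgeR adjusted p = 0.00530), without overlap. This differs from the study's qRT-PCR, by which it reports that TKT did not regulate c-Myc mRNA. The increase in c-Myc that the study describes was in protein, which RNA-seq does not measure. CACGTG was found in a RefSeq window of 8 of the 36 nucleotide genes, 22.2%, against 12.4% of the tested genes with a window. They were PPAT, PAICS, ATIC, AMPD2, DCK, DHODH, DCTPP1 and NME1, of which PAICS and NME1 fell and the other 6 were not called. The windows end 50 bases after each start and matches outside them were not sought. CAD and the other genes without a match here may hold one elsewhere. PPAT and PAICS hold the same match, at 56435792 to 56435797 on chromosome 4, with its first base at -182 from the start of PPAT and at 40 from that of PAICS. The match with 12 bases on each side is shown for the genes where the window holds both sides, so that the flanks can be compared (GRCh38.p14, each on its gene's strand, CACGTG in capitals).
PPAT, chr4:56435780-56435809, minus strand, in an exon of PAICS: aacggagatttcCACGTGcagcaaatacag
ATIC, chr2:215312001-215312030, plus strand, in an exon of ATIC: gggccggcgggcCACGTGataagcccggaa
ATIC, chr2:215312076-215312105, plus strand, in an exon of ATIC: ctcctacctgcgCACGTGgtgccgccgctg
DCK, chr4:70993521-70993550, plus strand, in an exon of DCK: cgccccggccttCACGTGacctggcgtgcg
DHODH, chr16:72008573-72008602, plus strand, across the first base of DHODH: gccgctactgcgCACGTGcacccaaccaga
DCTPP1, chr16:30429792-30429821, minus strand, in exons of DCTPP1 and ZNF771: ggagggttcctcCACGTGgtcgggaagcgg
AMPD2, chr1:109619748-109619777, plus strand, in no exon: gtggtggctgccCACGTGgcgcccaggaag
None of these 8 genes was higher in edgeR, DESeq2 or limma, and edgeR called 5.69% of all tested genes higher. A count of 0 of 8 is near that share, and an effect of c-Myc on these genes was not tested. ATIC, the only one of the 8 with 2 separate matches in a window, had a log2 fold change of 0.01 ± 0.04 (SE).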

How the data were processed

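RNA of 3 TKT-overexpressing and 3 vector control cultures was sequenced as 150-bp paired-end reads. The authors trimmed reads with fastp 0.22.0, aligned them with HISAT2 2.1.0 to hg38 and counted them with featureCounts. Annotation, strand and multi-mapping options are not given in the sources used here. The deposited counts are whole numbers per gene symbol without normalization. The deposited FPKM values were used for levels between genes and in limma.

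The main test used edgeR 4.0.16 under R 4.3.3 (filterByExpr, a minimum count of 10, TMM, robust quasi-likelihood test, Benjamini-Hochberg adjustment over 14162 genes). The study's methods name DESeq2, which is an alternative here (1.42.0), as is limma 3.58.1. Calls needed an adjusted p under 0.05; the study's fold threshold was applied too. Totals lay between 30148788 and 37096156 counts. The common coefficient of variation between cultures was 0.113. Standard errors were 0.03 to 0.12 for the 33 members with at least 10 CPM in control cells and 0.12 to 0.31 for the other 6.

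Members, lists and tests were chosen with earlier results of these data known. Named were TKT, every member and at most 6 called genes of each related list by smallest p. Chosen after their values were seen were PRPS1, PRPS2, NME6, NME7, MYC and the S-phase genes above 0. Positions are from GENCODE 29 and promoter windows from RefSeq (GRCh38.p14). The replicate numbers did not pair the cultures. The pipeline was tested on simulated counts. Alternatives were other scalings, filters, tools and thresholds, a replicate block, each culture left out and, chosen after seeing the data, a GC content and length trend removed.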

Additional observations from a re-analysis of the deposited data

How the results depend on the processing

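Over the 39 nucleotide genes and 16 alternatives each, 568 of 624 results kept their side of the threshold, 36 calls were lost, 20 were gained and 0 called values changed sign. At an adjusted p under 0.05 RRM2 was called in all 16 fits, HPRT1 in 15, APRT in 13, PFAS in 9, PAICS and NME1 in 8 each and IMPDH1 in 7. The number of members called lower was 4 with upper quartile scaling, 11 with no count filter, 2 in limma on log2(FPKM + 1), 3 on log2(FPKM + 0.1), 0 under the study's fold threshold and 12 with the GC content and length trend removed. The cause was not tested. With 1 culture left out it lay between 3 and 8, the number called higher between 0 and 1 (PNP), all genes called between 791 and 1586, other pathway genes called between 2 and 6 and S-phase genes called between 3 and 9. All genes called were 827 and 826 in the limma fits and 103 under the study's fold threshold. Other pathway genes called were 5 with no count filter and 7 with the trend removed, and S-phase genes called were 5 and 6 in the limma fits.

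With the replicate block, 697 genes were called in all, 2 members were lower (HPRT1 and RRM2) and 1 S-phase gene was called. The replicate numbers share no stated origin, and the deviations of same-numbered cultures correlated between -0.03 and 0.02. ADA, AMPD3, PNP, TK2, NME2 and IMPDH2 had fewer than 10 CPM in control cells and standard errors of 0.12 to 0.31. PNP and IMPDH2 had similar counts and standard errors of 0.31 and 0.12. PNP had 407 counts in control culture 1 and 198 and 224 in control cultures 2 and 3. What sets the standard errors was not tested.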
